A study of Mus musculus with 22 samples.

Results

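JARID2 chromatin occupancy was compared between mouse neural progenitor cells (NPC) and the embryonic stem cells (ESC) from which they were derived. The comparison used the 4 JARID2 libraries of the series, 2 per cell type, of 22 libraries in all, and every one of the 24467 windows of 5000 bp that the deposited table centres on transcription start sites (TSSs). Libraries were chosen by antibody and cell type alone. The 2 libraries made with IgG, a control immunoglobulin with no intended target, 1 per cell type, gave the background. The assay was CUT&RUN, in which an antibody tethers micrococcal nuclease to chromatin so that DNA next to the bound protein is cut out and sequenced. The wider study also profiled SUZ12, MTF2, H3K27me3 and H3K4me3.

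NPC were made by moving C57BL/6 ESC into N2B27 medium with 10 ng/mL bFGF and 40 µg/mL BSA for 72 h, then into medium with 500 nM SAG, an agonist of the Hedgehog pathway, and 40 µg/mL BSA for 48 h. ESC were kept in N2B27 with 100 U/mL LIF, 3 µM CHIR99021 and 1 µM PD0325901, which inhibit GSK3 and MEK. Both cell types carried the genotype label "untagged, Tir1" and the treatment label "untreated", so Tir1, the plant F-box protein used for auxin-induced degradation, is labelled alike in NPC and ESC. The labels do not say whether the line was 1 clone. The series calls the 2 libraries of a group biological replicates and says no more of their cultures.

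Polycomb repressive complex 2 (PRC2) methylates lysine 27 of histone H3 and keeps developmental genes silent. It is built on the core subunits EZH2, EED and SUZ12, and takes accessory subunits that define alternative forms: MTF2 belongs to PRC2.1, JARID2 and AEBP2 to PRC2.2. JARID2 binds nucleosomes that carry ubiquitylated histone H2A, activates the methyltransferase, and in embryonic stem cells is found with PRC2 at CpG-rich promoters of developmental regulators.

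Promoters at which JARID2 occupancy moved are shown here because the windows are centred on them. Each runs from 250 bases before to 50 bases after the RefSeq start site (GRCm38.p6, the assembly named mm10 in the files), 5′ to 3′ on the gene's strand, and capitals mark the dinucleotide CG, which reads the same on both strands and does not overlap itself. Nkx2-1 lies at chr12:56536859-56537158 (minus strand, 12 CG), Pax2 at chr19:44756656-44756955 (plus strand, 30 CG) and Hoxd11 at chr2:74679308-74679607 (plus strand, 4 CG). JARID2 fell in NPC at these 3. Fastk lies at chr5:24445186-24445485 (minus strand, 25 CG) and Pitpnb at chr5:111330447-111330746 (plus strand, 36 CG), where JARID2 rose. The Nkx2-1 and Pax2 start sites of RefSeq lie 1802 and 488 bp from the centre of the counted window. The Hoxd11 start site is that of a non-coding RefSeq transcript of the gene.
Nkx2-1: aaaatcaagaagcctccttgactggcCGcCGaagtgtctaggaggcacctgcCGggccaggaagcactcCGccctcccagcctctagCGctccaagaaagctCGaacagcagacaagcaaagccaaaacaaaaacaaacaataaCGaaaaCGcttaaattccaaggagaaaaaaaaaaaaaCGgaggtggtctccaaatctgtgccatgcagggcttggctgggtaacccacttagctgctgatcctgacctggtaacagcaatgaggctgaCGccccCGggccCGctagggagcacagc
Pax2: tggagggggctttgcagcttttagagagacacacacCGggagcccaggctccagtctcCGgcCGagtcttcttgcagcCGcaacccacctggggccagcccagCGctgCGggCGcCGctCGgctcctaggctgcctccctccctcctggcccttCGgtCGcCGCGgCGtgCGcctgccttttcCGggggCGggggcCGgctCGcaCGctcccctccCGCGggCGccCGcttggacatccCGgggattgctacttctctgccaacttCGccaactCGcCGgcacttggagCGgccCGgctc
Hoxd11: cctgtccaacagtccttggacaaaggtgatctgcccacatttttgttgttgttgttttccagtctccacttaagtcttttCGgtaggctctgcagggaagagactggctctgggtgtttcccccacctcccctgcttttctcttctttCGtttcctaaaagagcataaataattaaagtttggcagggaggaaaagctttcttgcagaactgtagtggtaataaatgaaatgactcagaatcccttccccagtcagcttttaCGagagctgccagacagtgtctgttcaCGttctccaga
Fastk: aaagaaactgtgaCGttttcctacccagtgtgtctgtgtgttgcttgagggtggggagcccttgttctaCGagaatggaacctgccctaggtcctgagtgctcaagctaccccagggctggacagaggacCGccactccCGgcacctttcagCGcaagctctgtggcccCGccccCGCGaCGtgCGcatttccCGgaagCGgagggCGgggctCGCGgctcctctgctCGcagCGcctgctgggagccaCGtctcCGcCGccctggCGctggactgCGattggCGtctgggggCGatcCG
Pitpnb: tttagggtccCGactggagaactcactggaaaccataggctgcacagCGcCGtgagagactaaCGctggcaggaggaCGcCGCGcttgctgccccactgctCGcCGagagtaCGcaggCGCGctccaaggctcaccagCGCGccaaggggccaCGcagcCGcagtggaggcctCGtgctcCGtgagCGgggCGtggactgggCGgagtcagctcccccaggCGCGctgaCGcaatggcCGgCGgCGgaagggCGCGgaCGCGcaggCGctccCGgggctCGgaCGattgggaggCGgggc
RefSeq promoters were matched to 17212 windows, 95.2% of which held at least 1 CG, with a median of 13 and quartiles of 4 and 24. A promoter was matched for 106 of the 174 windows at which JARID2 fell (60.9%), under the 80% set for a comparison of CG content, so none was made.

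The JARID2 libraries held 492529 and 339591 counts in NPC and 397452 and 420361 counts in ESC, and the IgG libraries 667898 in NPC and 298458 in ESC. Levels are given as counts per 1e6 counts of the library (CPM), and 3 counts, the limit that a count of 0 allows, stood for 6.09 and 8.83 CPM in the NPC and 7.55 and 7.14 CPM in the ESC libraries (counting error only, since PCR copies are not independent molecules). Drosophila DNA was spiked into the samples according to the labels, but no spike-in count was used here, so a change shared by all bound windows and a change in the efficiency of the assay cannot be told apart. The 1% of windows with the most counts held 2.68% and 2.89% of the counts in NPC and 4.03% and 4.28% in ESC, against 2.32% and 2.60% for IgG in NPC and ESC. H3K4me3 at marker TSSs matched the cell labels in part: it rose in NPC at 6 of 6 neural progenitor markers and at 3 of 4 neuron markers, fell at the other neuron marker, Stmn2 (log2 change -0.67), and fell at 5 of 6 ESC markers, where Esrrb had a log2 change of -0.26. Of other lineages, H3K4me3 rose at 1 and fell at 1 of 3 endoderm markers, fell at 2 of 3 mesoderm markers, and rose at 1 and fell at 2 of 4 trophectoderm markers.

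The NPC libraries differed by less than the sampling noise over all windows (chi-square per degree of freedom 0.998, p = 0.570, 23468 windows with at least 10 counts in the pair), whereas the ESC libraries differed slightly more than it (1.023, p = 0.00676, 23611 windows). The NPC pair was therefore summed and counted as 1 sample, and the spread came from the 2 ESC libraries, shared across windows. The same chi-square test restricted to the 1% of windows with the most counts (253 windows) found the NPC libraries to differ beyond sampling noise, at 1.59 per degree of freedom (p = 6.64e-09). Over the remaining 23215 windows the chi-square per degree of freedom was 0.991 (p = 0.830). The fit with the NPC libraries kept apart is therefore given beside the summed one, as "libraries apart".

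JARID2 occupancy changed at few TSSs, and mostly downwards, with falls at genes that pattern the body axis, the nervous system and other lineages. Among 22633 tested windows it changed at 193 (0.853%), falling in NPC at 174 (0.769%) and rising at 19 (0.0839%), by edgeR's quasi-likelihood test at a Benjamini-Hochberg adjusted p below 0.05. With libraries apart it fell at 163 of 21456 windows (0.76%) and rose at 17 (0.0792%), and 162 of the 174 falls and 17 of the 19 rises were called in both fits. The falls had a median log2 change of -1.17 and ran from -1.99 to -0.61, and the median of all tested windows was -0.0040. A single fit over all 22 libraries called 0 windows in either direction (836 at an unadjusted p under 0.05), and DESeq2 called 62 falls and 0 rises (166 windows at an unadjusted p under 0.05). Leaving out NPC replicates 1 and 2 and ESC replicates 1 and 2 in turn gave 121, 105, 92 and 64 falls. The DESeq2 fit gave an adjusted p to only 1132 of the 22633 windows, so its 0 rises hold for those windows alone. The falls lay at windows that were high in ESC, with a median of 162 CPM there and 73.9 CPM in the summed NPC libraries. The rises lay at windows that were low in ESC, with medians of 64.9 CPM in NPC and 25.5 CPM in ESC. All tested windows had medians of 42.6 and 41.2 CPM in the NPC and 40.3 and 40.4 CPM in the ESC libraries. A high ESC level at falls and a low one at rises follow in part from the call itself.

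**Figure D1:**
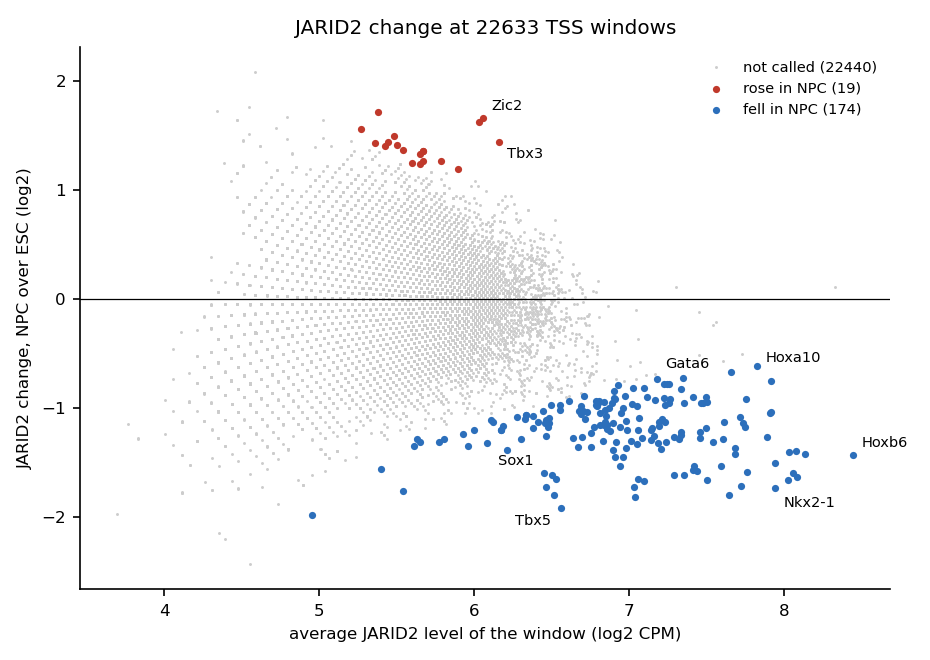
JARID2 change (log2 NPC over ESC) plotted against the average JARID2 level (log2 CPM), 1 point per tested TSS window. The 174 falls (blue) lie mostly at the high end, where few windows have a change near 0, and the 19 rises (red) at lower levels, with Zic2 and Tbx3 the most abundant named ones.

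The homeobox genes of the 4 Hox clusters, which assign position along the body axis, had the largest share of falls among the lists examined. JARID2 fell at 7 of 10 tested HoxB windows (median log2 change of the list -1.09), 6 of 9 HoxC windows (-0.96), 7 of 11 HoxA windows (-0.73) and 5 of 9 HoxD windows (-0.78), and rose at none of the 39. With libraries apart the falls numbered 7, 6, 5 and 3 in the same order. The clusters together gave 25 falls, against 20 and 18 without NPC replicates 1 and 2, 11 and 9 without ESC replicates 1 and 2, and 13 with DESeq2. Overlapping windows share reads: 6 HoxB, 3 HoxC, 10 HoxA and 5 HoxD windows overlapped another. Over the windows that overlapped no other, JARID2 fell at 8 of 15 Hox windows.

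At Hoxb6 (window chr11:96296671-96301670, mm10, overlapping that of Hoxb5) JARID2 stood at 195 and 156 CPM in NPC, against 496 and 459 CPM in ESC. The NPC libraries lay far below the ESC libraries and above IgG, which was 53.9 CPM in NPC and 83.8 CPM in ESC. The log2 change was -1.44 ± 0.12 (SE here and below; adjusted p = 1.51e-23, libraries apart 3.48e-08). Hoxc11 (chr15:102952026-102957025) held 140 and 88.3 CPM in NPC and 365 and 378 CPM in ESC, a log2 change of -1.66 ± 0.14 (adjusted p = 2.31e-23, libraries apart 3.58e-09). Hoxd11 (chr2:74677058-74682057, overlapping that of Hoxd12) held 108 and 73.6 CPM in NPC and 289 and 319 CPM in ESC (log2 change -1.72 ± 0.17, adjusted p = 5.33e-20, libraries apart 4.19e-09). The Hoxd11 window is centred on the start of a non-coding RefSeq transcript, and the promoter of that transcript has only 4 CG. Evx2, a homeobox gene beside the HoxD cluster (chr2:74657058-74662057), held 175 and 103 CPM in NPC and 365 and 404 CPM in ESC (log2 change -1.43 ± 0.13, adjusted p = 3.17e-19, libraries apart 1.31e-07). In each of these windows NPC and ESC libraries did not overlap, and the NPC library of replicate 1 was the higher of its pair. The windows were picked as falls on these libraries, and 8705 of all 22633 tested windows showed no overlap in 1 direction or the other. A lack of overlap, here and below, is thus common by itself.

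The clusters were not lowered evenly. In HoxB, Hoxb2 showed the most negative log2 change, with 116 and 133 CPM in NPC against 327 and 357 CPM in ESC (-1.50 ± 0.15, adjusted p = 1.86e-18, libraries apart 6.54e-08). Hoxb9 held 175 and 135 CPM in NPC and 133 and 155 CPM in ESC, so that the groups overlapped (log2 change 0.11 ± 0.18, adjusted p = 0.929, libraries apart 0.940). Hoxc13, at the end of its cluster, likewise held 114 and 100 CPM in NPC and 95.6 and 107 CPM in ESC (log2 change 0.07 ± 0.23, adjusted p = 0.960, libraries apart 0.971). Hoxb9 and Hoxc13 were picked after their values were seen. At Hoxa10 (chr6:52232440-52237439) the libraries gave 185 and 156 CPM in NPC and 262 and 259 CPM in ESC. That fall was smaller than those named before it (log2 change -0.61 ± 0.15) and passed in the summed fit (adjusted p = 0.0107) but not with libraries apart (0.154). Its neighbour Hoxa9 held 213 and 106 CPM in NPC and 239 and 233 CPM in ESC and passed in neither fit (log2 change -0.50 ± 0.15, adjusted p = 0.126, libraries apart 0.352). Hoxd13 held 126 and 79.5 CPM in NPC and 214 and 195 CPM in ESC (log2 change -0.95 ± 0.19, adjusted p = 7.91e-05, libraries apart 0.00532), and Hoxa11 146 and 97.2 CPM in NPC and 292 and 271 CPM in ESC (-1.18 ± 0.16, adjusted p = 4.17e-10, libraries apart 4.37e-05).

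**Figure D2:**
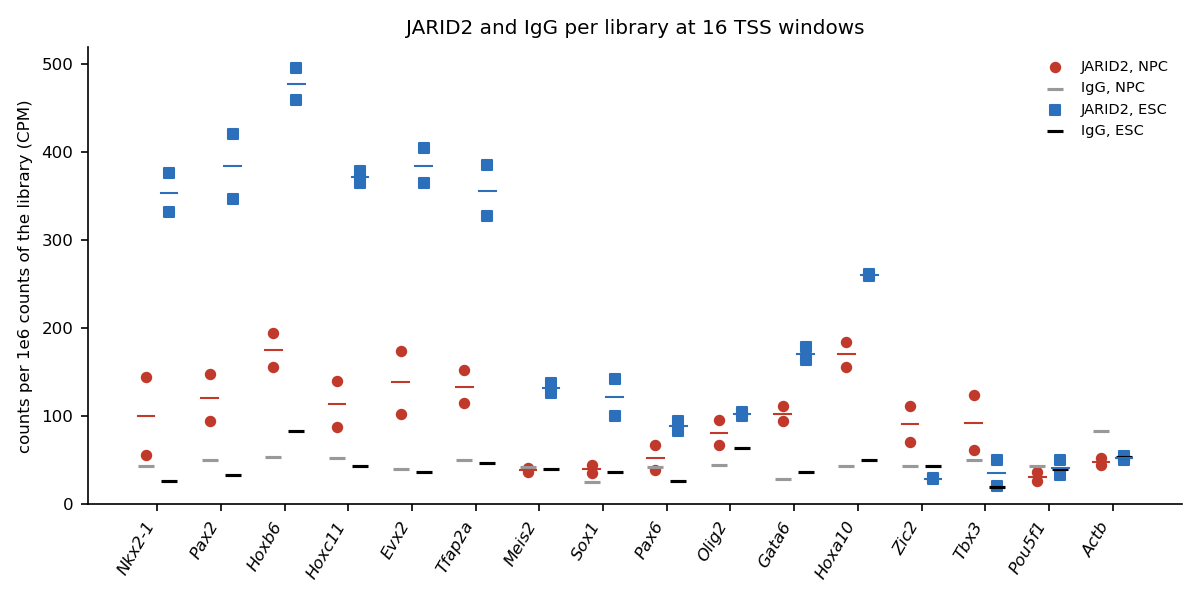
JARID2 and IgG levels (CPM) in every library at 16 TSS windows. Red circles are the 2 NPC and blue squares the 2 ESC JARID2 libraries with short lines at their means, and grey and black dashes the IgG libraries of NPC and ESC. From Nkx2-1 to Tfap2a the NPC libraries lie well below the ESC libraries, at Zic2 and Tbx3 above them, and at Pou5f1 and Actb both lie near IgG.

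Among regulators of the nervous system, JARID2 fell at 9 of 20 windows of dorsal neural tube and neural crest genes (list median -0.61), 8 of 22 forebrain genes (-0.68), 6 of 25 neural progenitor genes (-0.19), 9 of 41 neuronal differentiation genes (-0.41), 4 of 20 genes of the SHH response and ventral neural tube (-0.37) and 2 of 13 midbrain and hindbrain genes (-0.51), and rose at none of them. With libraries apart these counts were 8, 7, 6, 8, 4 and 2. The 6 lists together gave 38 falls, against 25 and 20 without NPC replicates 1 and 2, 15 and 16 without ESC replicates 1 and 2, and 12 with DESeq2. Nkx2-1, which specifies the ventral forebrain, thyroid and lung (chr12:56532607-56537606), held 144 and 55.9 CPM in NPC against 332 and 376 CPM in ESC. Both NPC libraries were below both ESC libraries, but they differed widely from each other, with 71 and 19 counts. The log2 change was -1.73 ± 0.15 (adjusted p = 2.12e-23, libraries apart 3.58e-09). Pax2, a regulator of the midbrain-hindbrain boundary and kidney (chr19:44754894-44759893), held 148 and 94.2 CPM in NPC and 347 and 421 CPM in ESC (-1.63 ± 0.14, adjusted p = 2.12e-23, libraries apart 4.19e-09).

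Among dorsal genes, Tfap2a, which acts in neural crest and surface ectoderm (chr13:40727958-40732957), held 152 and 115 CPM in NPC and 327 and 385 CPM in ESC (log2 change -1.40 ± 0.14, adjusted p = 2.23e-17, libraries apart 2.00e-07). Pax7, a regulator of the dorsal neural tube and muscle stem cells, held 77.2 and 91.3 CPM in NPC and 289 and 231 CPM in ESC (-1.67 ± 0.18, adjusted p = 3.62e-16, libraries apart 3.48e-08). At Lhx1, a LIM homeobox gene of interneurons, the NPC libraries gave 97.5 and 61.8 CPM and the ESC libraries 224 and 183 CPM (-1.31 ± 0.20, adjusted p = 3.11e-08, libraries apart 3.47e-05). Of these windows, Tfap2a was called above IgG in NPC, and Pax7 and Lhx1 were not: the log2 of JARID2 over IgG in NPC was 1.44 at Tfap2a, 0.94 at Pax7 and 0.89 at Lhx1, and in ESC 2.96, 2.13 and 2.25.

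Genes of neural progenitors and the ventral neural tube behaved unevenly. Meis2, a cofactor of Hox proteins (chr2:116062122-116067121), held 36.5 and 41.2 CPM in NPC and 138 and 126 CPM in ESC, with IgG at 41.9 CPM in NPC and 40.2 CPM in ESC, so that JARID2 stood at the level of IgG in NPC (log2 change -1.80 ± 0.28, adjusted p = 1.21e-07, libraries apart 1.17e-06). Sox1, an early marker of neural fate (chr8:12393019-12398018), held 44.7 and 35.3 CPM in NPC and 101 and 143 CPM in ESC, without overlap (log2 change -1.60 ± 0.29, adjusted p = 7.29e-06, libraries apart 3.32e-05). Nkx6-1, a homeobox gene of the ventral neural tube, held 75.1 and 76.6 CPM in NPC and 181 and 181 CPM in ESC (-1.28 ± 0.21, adjusted p = 1.04e-06, libraries apart 9.04e-05). H3K4me3, the mark of active promoters, had a log2 change of 2.20 at Meis2, 1.24 at Sox1 and 2.03 at Nkx6-1. Pax6, whose H3K4me3 log2 change was 1.25, held JARID2 at 38.6 and 67.7 CPM in NPC and 83.0 and 95.2 CPM in ESC. The Pax6 libraries did not overlap between cell types, but the change did not pass (log2 change -0.84 ± 0.29, adjusted p = 0.212, libraries apart 0.183). Nkx2-2 and Olig2, regulators of the ventral neural tube, did not pass either, with log2 changes of -0.53 ± 0.26 and -0.31 ± 0.25 (adjusted p = 0.570 and 0.812). The H3K4me3 log2 change was 2.90 at Nkx2-2 but -0.50 at Olig2, where that of H3K27me3 was 3.01.

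Regulators of lineages other than the neural one lost JARID2 too. It fell at 11 of 42 mesoderm windows (list median -0.58), 5 of 20 of surface ectoderm and trophectoderm (-0.47) and 4 of 20 of endoderm (-0.38), and rose at none, with 11, 5 and 2 falls when libraries were kept apart. The 20 falls became 19 and 13 without NPC replicates 1 and 2, 15 and 9 without ESC replicates 1 and 2, and 8 with DESeq2. Tbx5, a T-box gene of heart and forelimb (chr5:119832163-119837162), held 38.6 and 35.3 CPM in NPC and 133 and 145 CPM in ESC (log2 change -1.92 ± 0.28, adjusted p = 6.75e-09, libraries apart 1.62e-07). IgG stood at 38.9 CPM in NPC and 36.9 CPM in ESC there, so the NPC libraries were at the level of IgG. Pax9, needed for pharyngeal pouch organs, held 85.3 and 76.6 CPM in NPC and 224 and 255 CPM in ESC (-1.57 ± 0.19, adjusted p = 1.51e-13, libraries apart 1.62e-07). Pitx1, a hindlimb homeobox gene on the ectoderm list, held 69.0 and 79.5 CPM in NPC and 206 and 236 CPM in ESC (-1.61 ± 0.20, adjusted p = 1.06e-12, libraries apart 1.62e-07).

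On the endoderm list, Prox1, a homeobox gene of liver and lymphatic endothelium, held 60.9 and 64.8 CPM in NPC and 153 and 150 CPM in ESC (log2 change -1.30 ± 0.24, adjusted p = 2.05e-05, libraries apart 1.84e-04). Gata6, which drives primitive endoderm, held 112 and 94.2 CPM in NPC and 164 and 178 CPM in ESC. Its smaller fall (-0.73 ± 0.20) passed in the summed fit (adjusted p = 0.0282) and not with libraries apart (0.107). At T, the mesoderm gene Brachyury, the NPC libraries gave 79.2 and 41.2 CPM and the ESC libraries 65.4 and 102 CPM, so the cell types overlapped (log2 change -0.43 ± 0.28, adjusted p = 0.734, libraries apart 0.664).

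JARID2 fell at 11 of 58 clustered protocadherin windows, genes for neuronal cell adhesion molecules that lie side by side and can share reads (list median -0.71; 20 of the 58 overlap another window), and at 3 to 6 of them when 1 of the 4 libraries was left out and 1 with DESeq2. The protocadherin Pcdhgb6 held 44.7 and 38.3 CPM in NPC and 113 and 147 CPM in ESC (log2 change -1.65 ± 0.28, adjusted p = 1.16e-06, libraries apart 8.63e-06). Single falls occurred among 50 WNT, BMP and FGF ligands (Fgf9, log2 change -1.14 ± 0.23, adjusted p = 1.96e-04), 27 imprinted genes (Grb10, -1.19 ± 0.24, adjusted p = 1.13e-04) and 22 PRC1 subunits. The PRC1 window was that of Cbx8, a chromodomain protein that reads H3K27me3, with 102 and 138 CPM in NPC and 234 and 212 CPM in ESC (-0.95 ± 0.18, adjusted p = 2.01e-05, libraries apart 0.00482). No window fell among 20 naive pluripotency, 15 primed epiblast, 12 glia, 20 germline, 12 PRC2 subunit, 7 cell cycle inhibitor, 24 housekeeping and 810 olfactory receptor windows, whose list medians were 0.23, -0.19, -0.0040, 0.0052, 0.27, 0.067, 0.27 and -0.32. With falls at 0.769% of all tested windows, 0 or 1 fall in lists of 7 to 50 windows does not set those lists apart. Olfactory receptor windows were low, at medians of 20.3 and 20.6 CPM in NPC and 22.6 and 23.8 CPM in ESC. In all, 97 of the 174 falls lay in a list and 77 in none.

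**Figure D3:**
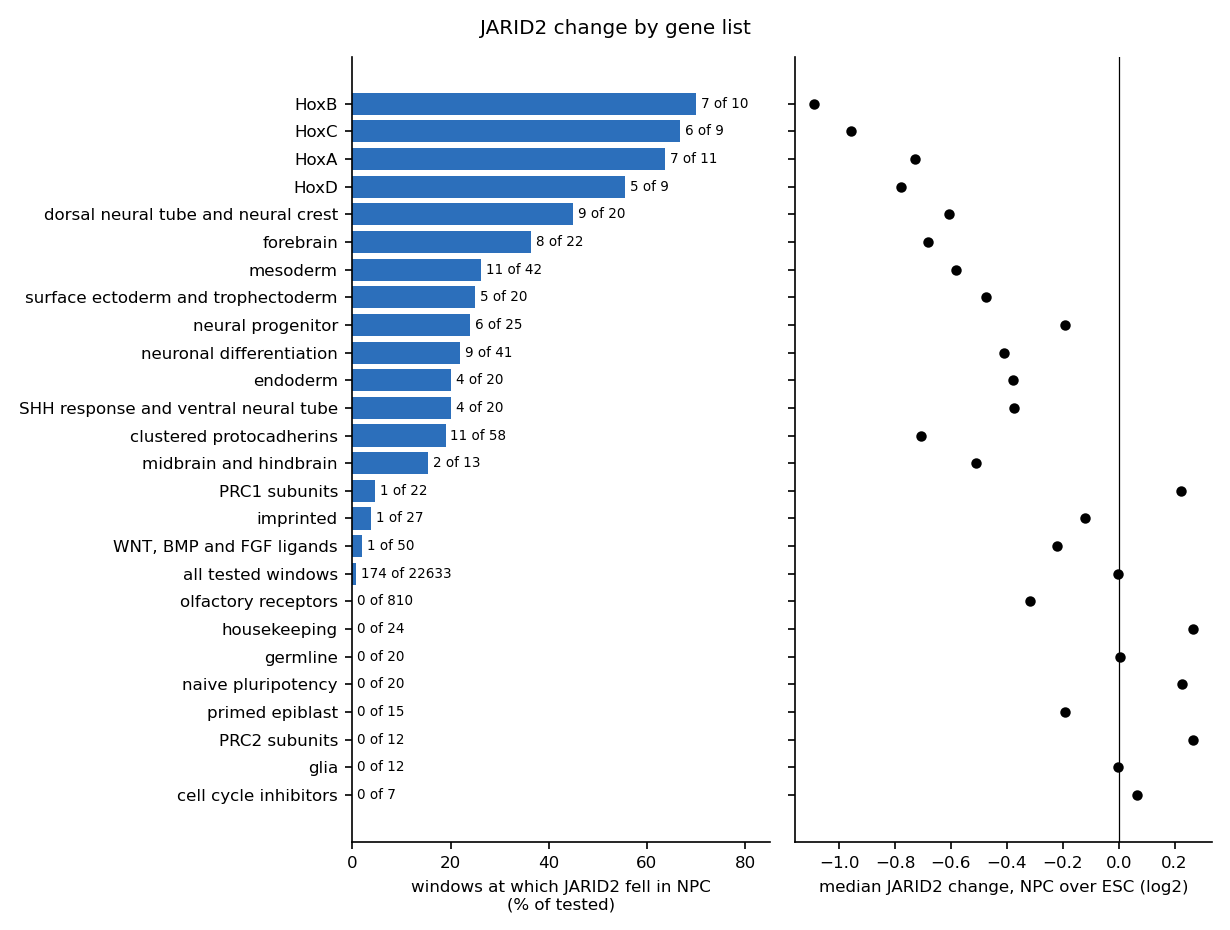
Share of tested windows at which JARID2 fell in NPC (bars, % with counts beside them) and median JARID2 change (points, log2 NPC over ESC) for each gene list, with all tested windows for reference. The 4 Hox clusters head the plot at 55.6% to 70.0%, against 0.769% of all tested windows.

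Of the 20 naive pluripotency windows, JARID2 passed the test only at Tbx3, where it rose. Pou5f1, which encodes OCT4, held 36.5 and 26.5 CPM in NPC and 50.3 and 33.3 CPM in ESC, at IgG levels of 43.4 and 40.2 CPM in NPC and ESC (log2 change -0.38 ± 0.37, adjusted p = 0.858, libraries apart 0.820). Nanog and Klf4 had log2 changes of -0.54 ± 0.35 and 0.40 ± 0.36 (adjusted p = 0.741 and 0.840). Their H3K27me3 log2 changes were 4.17 at Pou5f1, 2.44 at Nanog and 4.94 at Klf4. The Jarid2 gene itself held 32.5 and 20.6 CPM in NPC and 37.7 and 23.8 CPM in ESC (-0.17 ± 0.44, adjusted p = 0.952), and Actb, a housekeeping gene, 52.8 and 44.2 CPM in NPC and 50.3 and 54.7 CPM in ESC (-0.12 ± 0.32, adjusted p = 0.952).

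Of the 19 windows at which JARID2 rose, only 2 genes were on a list, Zic2 and Tbx3. Zic2, a zinc finger regulator of primed epiblast and neural plate (chr14:122472884-122477883), held 112 and 70.7 CPM in NPC, against 30.2 and 28.5 CPM in ESC. Both NPC libraries were above both ESC libraries and above IgG, which was 43.4 CPM in NPC and 43.6 CPM in ESC. The log2 change was 1.66 ± 0.33 (adjusted p = 1.13e-04, libraries apart 2.15e-04), and the window shares reads with that of 2610035F20Rik, another of the 19. Tbx3, a T-box gene of the naive pluripotency network (chr5:119668733-119673732), held 124 and 61.8 CPM in NPC and 50.3 and 21.4 CPM in ESC, with 61, 21, 20 and 9 counts (log2 change 1.44 ± 0.31, adjusted p = 8.29e-04, libraries apart 0.00225). IgG was 50.9 CPM in NPC and 20.1 CPM in ESC there, and the JARID2 change did not pass against that of IgG (difference 0.12, adjusted p = 0.996). The Tbx3 call was lost without NPC replicate 1 (log2 change 0.78) and without ESC replicate 2 (0.94), and the Zic2 call without NPC replicate 1 (1.24). At Zic2 and Tbx3 the H3K27me3 log2 changes were 4.93 and 4.95, with SUZ12 at 1.67 and 1.58 and MTF2 at 1.11 and 1.11. The MTF2 changes did not pass (adjusted p = 0.187 at Zic2 and 0.128 at Tbx3). Zic5, the neighbour of Zic2, did not pass for JARID2 (0.82 ± 0.36, adjusted p = 0.477), although its H3K27me3 log2 change was 5.99.

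The other rises rested on few counts: over the 19 windows the ESC libraries averaged 7 to 14.5 counts per window, with a median of 10.5. The level of JARID2 over IgG at these windows had a median log2 of 0.50 in NPC and -0.83 in ESC, with 0 of 19 called above IgG in NPC. The ESC value below 0 means that JARID2 there lay, at the median, under the IgG library of the same cells. Fastk, of the FAST kinase family, had 28 and 28 counts in NPC and 6 and 15 in ESC (log2 change 1.36 ± 0.35, adjusted p = 0.0146, libraries apart 0.0237). Pitpnb, a phosphatidylinositol transfer protein, had 32 and 24 counts in NPC and 9 and 12 in ESC (1.36 ± 0.35, adjusted p = 0.0146, libraries apart 0.0194). Fbxo28, an F-box protein gene with 34 and 18 counts in NPC and 8 and 13 in ESC, lost its call with libraries apart (adjusted p = 0.0459, libraries apart 0.0631). The rises numbered 3 to 12 when 1 of the 4 libraries was left out, with 3 without ESC replicate 2.

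JARID2 was set against IgG in each cell type in a fit of the JARID2 and IgG libraries, in which IgG, with 1 library in each cell type, was assumed to vary as JARID2 did. JARID2 was called above IgG, at a log2 of at least 1, at 60 of 22996 windows in NPC (0.261%) and 192 in ESC (0.835%). The 2 sets shared 55 windows, 91.7% of the NPC set and 28.6% of the ESC set. A single fit over all libraries called 0 windows in either cell type (434 in NPC and 898 in ESC at an unadjusted p under 0.05). Without NPC replicate 1 the NPC count was 3, and without ESC replicates 1 and 2 in turn it was 26 and 23. At the 192 windows, which were chosen on these ESC libraries, JARID2 summed over windows stood 1.90 and 1.58 times over IgG in the NPC libraries and 3.85 and 4.09 times in the ESC libraries. Hoxa10, Gata6, Evx2, Vcan and Hoxa9 had the largest JARID2 over IgG in NPC, with log2 values of 2.00, 1.88, 1.85, 1.84 and 1.83, and in ESC 2.40, 2.24, 3.41, 0.45 and 2.99. Vcan, which encodes the matrix proteoglycan versican, was 1 of 5 windows above IgG in NPC alone. It held JARID2 at 77.2 and 58.9 CPM in NPC and 40.3 and 40.4 CPM in ESC, and its JARID2 change did not pass (0.76 ± 0.32, adjusted p = 0.419). IgG at Vcan was low, at 19.5 CPM in NPC and 30.2 CPM in ESC, against an NPC median of 43.4 CPM over all tested windows. At 5 of the 5 windows IgG was lower in NPC than in ESC, so these calls rest in part on low values of 1 IgG library. The largest values in ESC were 3.75 at Nkx2-1, 3.55 at Pax2, 3.41 at Evx2, 3.38 at Hoxb2 and 3.20 at Prox1. The ESC IgG library held only 8, 10, 11, 10 and 5 counts at these windows, so their order depends on few IgG counts. Hoxb6, with 25 IgG counts in ESC, had a log2 of 2.54.

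**Figure D4:**
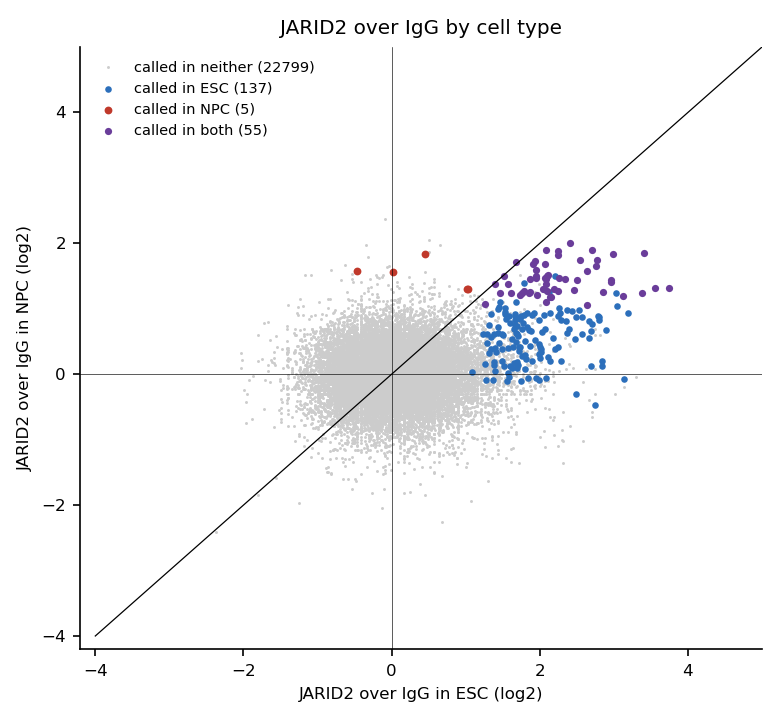
JARID2 over IgG in NPC (vertical axis, log2) against ESC (horizontal axis, log2), 1 point per TSS window, with a line of equal values. Windows called in both cell types (purple, 55) and in ESC (blue, 137) lie below the line with few exceptions, and 5 windows were called in NPC alone (red).

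The IgG background had a median change near 0 where JARID2 fell. At the 174 windows the median log2 change of IgG was -0.02 (with 5 CPM added to each library), below 0 at 94 of them. JARID2 summed over the windows, which were chosen on these JARID2 libraries, stood 1.74 and 1.46 times over IgG in NPC and 3.43 and 3.64 times in ESC. The JARID2 change differed from the IgG change at 9 of 22996 windows, all with JARID2 lower (0.0391%), and lay above it at 0 (0%). Of these, 8 were among the 174 falls: Eomes, Nr2f2, Prdm6, Nkx2-1, Pax2, Hoxb2, Hoxb5os and Mir196a-2. The exception was Sox14, whose JARID2 change did not pass by itself (log2 change -0.97 ± 0.29, adjusted p = 0.0928). At Eomes, a T-box gene of mesendoderm and cortex, JARID2 stood at 65.0 and 55.9 CPM in NPC and 153 and 176 CPM in ESC, and IgG at 56.9 CPM in NPC and 23.5 CPM in ESC (difference of log2 changes -2.72, adjusted p = 0.0227). Nr2f2, a nuclear receptor of vein and interneuron development, gave 62.9 and 58.9 CPM in NPC and 181 and 197 CPM in ESC, with IgG at 53.9 CPM in NPC and 26.8 CPM in ESC (-2.65, adjusted p = 0.0227). With libraries apart the test called 0 windows (1314 at an unadjusted p under 0.05), as it did with DESeq2 (11 at an unadjusted p under 0.05) and without NPC replicate 2 or either ESC replicate.

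The falls lay where SUZ12 had been bound. SUZ12 was above IgG in ESC at 2606 of 23284 windows (11.2%), and 170 of the 174 falls and 3 of the 19 rises were among them. Over the 2583 of these that were tested for JARID2, it fell at 170 (6.58%) and rose at 3 (0.116%). JARID2 summed over those windows stood 1.17 and 1.11 times over IgG in NPC and 1.50 and 1.53 times in ESC. At 167 of the 174 windows SUZ12 fell too (96.0% of the JARID2 falls, 5.99% of the SUZ12 falls), with SUZ12 falling at 2786 of all 21238 tested windows (13.1%) and rising at 630 (2.97%). MTF2 fell at 18 of the 174 (10.3%), with falls at 1887 of 20885 windows (9.04%) and rises at 681 (3.26%). Windows bound by SUZ12 in ESC had more falls than that: SUZ12 fell at 2101 of 2583 and MTF2 at 1207 of 2581 of them. Those windows were chosen on the same ESC SUZ12 libraries, which by itself favours SUZ12 falls among them. Median log2 changes over the 174 were -1.28 for SUZ12 and -1.20 for MTF2. The MTF2 libraries of NPC differed from each other more than those of SUZ12 did (chi-square per degree of freedom 2.15 and 1.26 in their top 1% of windows). The part of that spread in the lower MTF2 count was not tested.

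Tested directly, the change of JARID2 differed from that of SUZ12 at 956 of 23167 windows, lying below it at 95 (0.41%) and above it at 861 (3.72%). The split depended on the scaling: by library totals in place of TMM it was 252 below and 423 above, with the median of all windows at -0.27, against -0.03 with TMM. Of the 2583 windows bound by SUZ12 in ESC, 738 were above. They were chosen on the ESC SUZ12 libraries of this comparison, which by itself favours a positive difference. Of the 192 windows at which JARID2 was itself above IgG in ESC, 14 were above and 0 below, with a median difference of 0.23 (log2). The 5 named windows with the largest positive difference were Epha7 (difference 3.24), Pcdha9 (3.01), Cdh2 (2.95), Zswim6 (2.94) and Dab1 (2.81). Their log2 values of JARID2 over IgG in ESC were -1.06, 0.09, 0.74, 0.22 and -0.07. At Epha7, an ephrin receptor gene, JARID2 gave 16 and 10 counts in NPC and 7 and 7 in ESC, while the SUZ12 log2 change was -2.39. At Cdh2, which encodes N-cadherin, JARID2 gave 13 and 14 counts in NPC and 9 and 9 in ESC, with a SUZ12 log2 change of -2.40. Among windows with a negative difference, Tmprss7, a protease gene, had 11 and 6 counts in NPC and 20 and 18 in ESC, against IgG at 34 and 11 counts in NPC and ESC (difference -2.41, adjusted p = 0.00310). Among JARID2's own changes, 2 of the 174 falls lay below and 12 above the SUZ12 change, and 6 of the 19 rises lay above it.

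Against MTF2 the JARID2 change lay below at 48 of 23283 windows (0.206%) and above at 197 (0.846%). With scaling by library totals the balance turned over, to 208 below and 137 above, around a median of -0.34 over all windows (-0.04 with TMM scaling). Of the 174 falls 0 differed from MTF2 in either direction (2 with libraries apart), with a median difference of 0.04. The SE of this difference was 1.94 at Nkx2-1, 1.69 at Hoxb6 and 0.68 at Tbx5. For the difference from SUZ12 it was 0.30 at Nkx2-1 and 0.28 at Hoxb6. With SEs as large as those at Nkx2-1 and Hoxb6, the lack of calls cannot show whether JARID2 and MTF2 changed alike. The total of 245 windows depended on the fit: it was 739 with libraries apart, 0 with DESeq2 and 25 without NPC replicate 1. DESeq2 gave an adjusted p to only 1616 of the 23283 windows in this comparison. Epha7 (3.08), Phf8 (2.94), Zswim6 (2.94), Arhgap6 (2.92) and Efna5 (2.90) had the largest positive differences. At Efna5, an ephrin ligand gene, JARID2 gave 54.8 and 53.0 CPM in NPC and 60.4 and 38.1 CPM in ESC, while the MTF2 log2 change was -2.75.

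**Figure D5:**
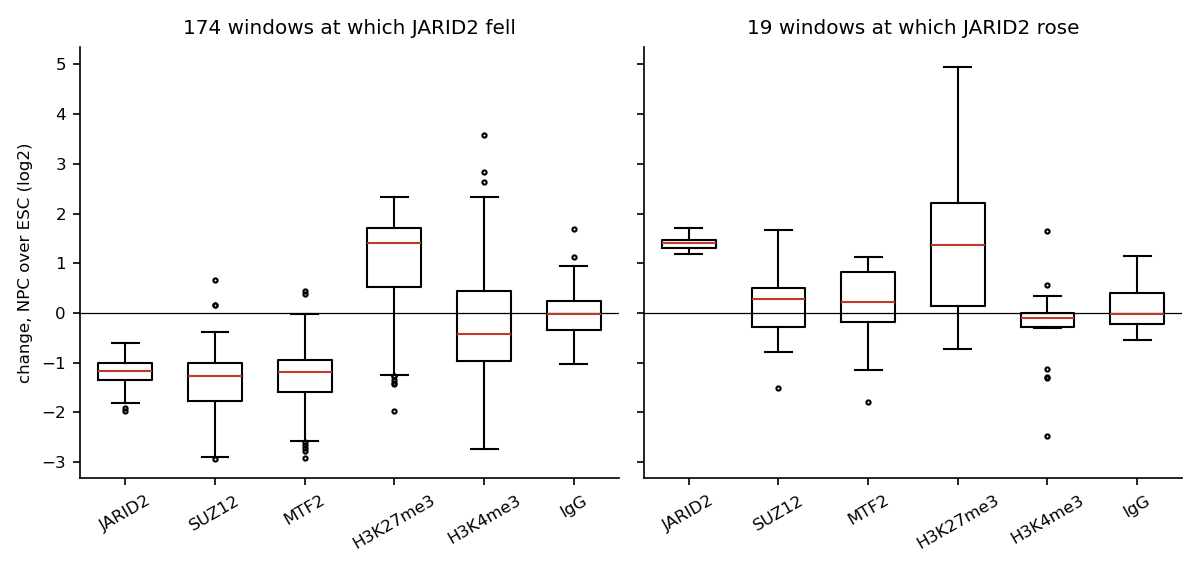
Change between NPC and ESC (log2) of JARID2, SUZ12, MTF2, H3K27me3, H3K4me3 and IgG at the 174 windows at which JARID2 fell and the 19 at which it rose. Boxes span the quartiles with the median in red, and whiskers and circles show the windows outside them. JARID2, SUZ12 and MTF2 medians lie between -1.28 and -1.17 on the left, with IgG at -0.02.

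At the falls the median change was upwards for H3K27me3 and downwards for H3K4me3. H3K27me3 had a median log2 change of 1.41 over the 174 windows and was below 0 at 28 of them. Few of these changes passed: it was called as falling at 7 and as rising at 0. Its SE was large at some of them, with log2 changes of 1.47 ± 1.75 at Hoxb6 and 1.69 ± 1.23 at Nkx2-1. Over all windows H3K27me3 fell at 5127 of 21863 (23.5%) and rose at 5017 (22.9%). The H3K27me3 libraries of NPC differed widely in enriched windows: replicate 1 held 24.4% of the pair's counts in its top 1% of windows, against 36.5% over all windows. The part of that spread in the absence of calls was not tested. H3K4me3 fell at 93 and rose at 46 of the 174, with a median of -0.42, against falls at 5778 of 19776 windows (29.2%) and rises at 5286 (26.7%) over all. The 46 include windows named before, such as Meis2, Nkx6-1, Hoxb2 (2.33) and Sox1, and the 93 include Nkx2-1 (-1.29), Hoxc11 (-2.21), Hoxa11 (-2.16) and Evx2 (-1.25). At the 18 rises with a value, H3K27me3 rose at 10 and fell at 1.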

How the data were processed

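The table holds counts as deposited, read numbers in whole units for each 5000 bp TSS window and not normalized, per the file headers, and all 22 count columns were matched to a library. Per the submitters' processing notes the build was mm10 and Bowtie2 2.3.4.3 and Picard 2.19 were used, in roles not stated. How reads were filtered, deduplicated and counted is not given in the sources used here. Symbols turned into dates (27) were restored from transcripts, and 5370 windows (21.9%) overlapped another.

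Changes were tested with edgeR 4.0.16 (R 4.3.3) quasi-likelihood fits, scaled by TMM after filterByExpr (minimum count 10), with Benjamini-Hochberg adjustment over all tested windows. CPM and sums over windows were computed from the deposited counts. SE is the log2 change over the square root of F. TMM factors were set within each antibody for differences from SUZ12 and MTF2, and over 6 libraries for IgG. Fits were tested on simulated data. Alternatives were DESeq2 1.42.0, other scalings, filters, windows and samples. Members and lists were chosen with earlier results of these data known. Named TSSs were landmarks, the smallest p per list and direction, the largest changes at or above the median level, the 5 highest over IgG per cell type, and the 5 most extreme differences from IgG, SUZ12 and MTF2. Not every TSS chosen by these rules is reported here.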

Additional observations from a re-analysis of the deposited data

Results flagged for a closer look

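The change of JARID2 between NPC and ESC differed from that of another antibody, tested as an interaction in edgeR, at 956 windows for SUZ12, 245 windows for MTF2 and 9 windows for IgG. The SUZ12 windows with JARID2 above were 861 and those with it below 95 (423 and 252 with scaling by library totals), and 738 of the 861 had SUZ12 above IgG in ESC. That overlap is favoured by the use of the same ESC SUZ12 libraries in both calls.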

How the results depend on the processing

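With 1 summed NPC sample and 2 ESC libraries, p-values rest on the spread of the ESC pair. That spread was shared fully across windows, at a biological coefficient of variation of 3.72%, so a window's own replicates added nothing to it. SEs and p-values of the summed fit thus measure mostly counting noise, and the spread of the NPC pair does not enter them. The low counts per window limit what can be called. Of 934 values of the 74 named TSSs under other settings, 820 had the direction and side of the threshold reported, 112 fell short of the threshold, 2 newly passed and 0 reversed. The JARID2 count of 193 became 62 with DESeq2 (62 falls, 0 rises), 0 in 1 fit over all libraries (0 falls, 0 rises) and 92 over non-overlapping windows (81 falls, 11 rises), where 17500 windows were tested and 100 of the 174 falls were among them. Leaving out 1 library gave 67 to 129 calls, 64 to 121 falls and 3 to 12 rises. Other scalings and filters gave 169 to 195 calls. JARID2 over IgG in NPC gave 3 to 56 windows leaving out 1 library, 0 in 1 fit over all libraries and 1 at a log2 of at least 2. In ESC it gave 137 to 191, 0 and 84, and 303 with both IgG libraries together. The difference from IgG (9) gave 0 with libraries apart, 0 with DESeq2 and 0 to 8 leaving out 1 library. The difference from SUZ12 (956) gave 232 with DESeq2 and 298 to 722 leaving out 1 library. Scaling by library totals gave 675 for the difference from SUZ12 (252 below, 423 above) and 345 for that from MTF2 (208 below, 137 above). The difference from MTF2 (245) gave 739 with libraries apart, 0 with DESeq2 (adjusted) and 25 to 164 leaving out 1 library. DESeq2 gave an adjusted p to only 1132 windows for the JARID2 change, 1608 for its difference from SUZ12 and 1616 for that from MTF2. The cause of the shifts between settings was not tested.

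Replicate numbers showed no pairing of the samples: deviations of same-numbered JARID2 libraries from their group means correlated at 0.0119 over 21184 windows (SUZ12 -0.0020, MTF2 -0.178). The JARID2 pairs differed by about the sampling noise, so their correlation cannot show whether the cultures were paired. With libraries apart and a replicate block, JARID2 changed at 176 windows (156 falls, 20 rises), against 180 (163 falls, 17 rises) without the block, its difference from SUZ12 passed at 989 windows and that from MTF2 at 411. With the numbers of the NPC MTF2 libraries crossed in that block, a fit chosen after seeing the data, the difference from MTF2 passed at 897.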

Other observations

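Falls outside the gene lists included further developmental regulators. Pcdh10, a protocadherin gene that lies apart from the clusters, held JARID2 at 56.8 and 70.7 CPM in NPC and 196 and 195 CPM in ESC (log2 change -1.67 ± 0.22, adjusted p = 3.38e-11, libraries apart 1.75e-07). Prdm6, which acts in smooth muscle, held 58.9 and 50.1 CPM in NPC and 164 and 219 CPM in ESC (-1.81 ± 0.23, adjusted p = 2.32e-12, libraries apart 4.49e-08). Nr2f2 had a log2 change of -1.65 ± 0.22 (adjusted p = 1.42e-10, libraries apart 2.67e-07). By chromosome, against 0.769% of all tested windows, JARID2 fell at 26 of 1832 tested windows of chromosome 11, which carries HoxB, at 12 of 895 of chromosome 15, which carries HoxC, at 16 of 1243 of chromosome 6, which carries HoxA, at 17 of 1879 of chromosome 2, which carries HoxD, at 14 of 597 of chromosome 18, which carries the clustered protocadherins, and at 0 of 390 of the X chromosome. At a share of 0.769%, few falls are expected among 390 windows. Of chromosomes without these clusters, JARID2 fell at 10 of 783 windows of chromosome 19 and 15 of 1333 of chromosome 5, but at 7 of 1328 of chromosome 1 and 6 of 1981 of chromosome 7. Whether the clusters account for differences between chromosomes was not tested.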
